A study of Homo sapiens with 4 samples.

Results

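The miR-29 family of mature miRNAs was followed across 4 human colorectal cancer cell lines, of which a pair were parental lines and a pair were their radioresistant derivatives. The family was taken as its guide strands by name, hsa-miR-29a-3p, hsa-miR-29b-3p and hsa-miR-29c-3p, which are 3 of the 1474 miRNAs listed in at least 1 library. HCT116 and RKO are established epithelial colorectal cancer lines. HCT116-R and RKO-R are the lines labelled acquired radioresistant. According to the methods of the study, they were derived by irradiating flasks with 4 Gy again and again until 40 Gy had been given, and the cells were then grown unirradiated for 3 weeks or longer. The parental lines were the comparison, and no mock-irradiated culture carried in parallel was named. Small RNA of 18 to 30 nt was sequenced from 1 library per line, so no value below has a replicate. The question put to the family was how much of it each line held, how that amount was divided among the members, and whether either differed between a radioresistant line and its parent or between the HCT116 and RKO lineages.

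A miRNA guides an Argonaute protein to messenger RNAs that pair with its seed, the bases near its 5′ end, and lowers their translation and stability. The miR-29 members share a seed, and their known targets include messenger RNAs of fibrillar and basement membrane collagens and other matrix proteins, of the DNA methyltransferases DNMT3A and DNMT3B, and of the survival protein MCL1. MYC is known to repress the miR-29 genes. In many epithelial tumours lower miR-29 has been described, and miR-29b is known for a nuclear import signal in its last bases. These statements are background from the literature, not results of these libraries, and no messenger RNA was measured here.

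The mature sequences are shown because the seed defines the family and the few other differences decide which read is counted for which member. Capitals mark the seed, bases 2 to 8 counted from 1 at the 5′ end, and the sequences are those of RefSeq.

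miR-29a-3p: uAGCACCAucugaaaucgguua
miR-29b-3p: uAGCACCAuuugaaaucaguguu
miR-29c-3p: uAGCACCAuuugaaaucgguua

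Of the 2370 mature human miRNAs in the RefSeq table, these 3 were the ones with AGCACCA at bases 2 to 8. A further 5 held the same 7 bases at another position, and of these miR-3065-3p, which holds them from base 3, had 48 and 57 counts in the HCT116 parent and derivative and 3 and 2 in the RKO parent and derivative. The table held a sequence for 1313 of the 1474 listed miRNAs, and the others were not searched. miR-29a-3p and miR-29c-3p are 22 nt long and differ by the single substitution C10U, with 21 of 22 bases identical. miR-29b-3p is 23 nt long and differs from miR-29c-3p by G18A, U21G and A22U over the first 22 bases. Against miR-29a-3p it differs by C10U, G18A, U21G and A22U, which leaves 18 of 22 bases identical. The nearest other mature miRNA was miR-136-3p for miR-29a-3p and miR-29b-3p, with 9 differences, and miR-10393-3p for miR-29c-3p, with 10. Differences are mismatches counted from the 5′ end without gaps, plus any difference in length. A single base thus separates miR-29a-3p from miR-29c-3p, and the number of mismatches allowed in the counting is not given in the sources used here, so the split of reads between those members is less certain than the split between either of them and miR-29b-3p.

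The members come from 4 hairpins in 2 genomic clusters, each holding 1 copy of the miR-29b-3p sequence. The hairpins are shown with both mature arms in capitals, because the 5p arms tell the copies apart where the 3p arms cannot. Coordinates are those of GRCh38.p14, and all 4 lie on the minus strand.

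MIR29A: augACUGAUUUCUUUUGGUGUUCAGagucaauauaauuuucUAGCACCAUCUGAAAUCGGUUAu
MIR29B1: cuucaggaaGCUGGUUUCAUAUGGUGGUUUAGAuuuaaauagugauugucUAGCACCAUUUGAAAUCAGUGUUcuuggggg
MIR29B2: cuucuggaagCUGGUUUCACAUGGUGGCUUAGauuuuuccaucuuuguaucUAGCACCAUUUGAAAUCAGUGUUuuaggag
MIR29C: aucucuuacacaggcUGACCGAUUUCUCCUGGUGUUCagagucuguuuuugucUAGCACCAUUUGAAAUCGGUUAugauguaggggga

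MIR29A at chr7:130876747-130876810 and MIR29B1 at chr7:130877459-130877539 are separated by 648 bases. In GENCODE 29, MIR29B1 lies in exon 4 of the long noncoding transcript LINC-PINT-202, and MIR29A overlaps the end of that transcript by 2 bases. Longer transcripts of the noncoding gene AC016831.6, on the same strand, span both hairpins in full, with no exon listed over either. A transcript of the noncoding gene LINC00513 spans both on the opposite strand. MIR29C at chr1:207801852-207801939 and MIR29B2 at chr1:207802443-207802523 are separated by 503 bases, and both lie in exon 5 of MIR29B2CHG-203, the noncoding host gene named for them. The mature miR-29a-3p lies at chr7:130876748-130876769 and miR-29c-3p at chr1:207801865-207801886. The 2 copies of miR-29b-3p lie at chr7:130877467-130877489 and chr1:207802450-207802472, and a read of it cannot be placed on 1 of them.

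The 4 libraries held 6818497 to 7140460 counts over 992 to 1198 listed miRNAs, so 3 counts, the limit that an absent miRNA allows, correspond to 0.420 to 0.440 CPM (counts of a miRNA per 1000000 counts of the library). Intervals on levels, shares and ratios within a library are 95% intervals for counting error alone and do not cover differences between cultures. In both radioresistant libraries the counts of 2 miRNAs stood almost wholly under the name of a miRNA on the opposite strand of the same hairpin locus. miR-3184-3p held 99.3% of its pair with miR-423-5p in HCT116-R and 99.9% in RKO-R, against 0.183% in HCT116 and 0.443% in RKO. miR-3529-3p held 99.5% of its pair with miR-7-5p in HCT116-R and 99.9% in RKO-R, against 0.628% and 0.225% in the parental lines. Each line has 1 library, so no radioresistant line can be examined without it, and the comparison of HCT116 with RKO uses neither. No other annotated miRNA hairpin overlaps the miR-29 hairpins on either strand, so no such partner exists for the family in this annotation. The epithelial marker miRNAs (the miR-200 family, miR-141, miR-192, miR-194 and miR-215) summed to 58544 to 62978 CPM in the HCT116 lines and to 10096 to 11703 CPM in the RKO lines. All but miR-215-5p, at 0 in 3 libraries, were listed in every line. Most of the gap between lineages was miR-200c-3p, with 42717 CPM in HCT116 and 42008 CPM in HCT116-R but 90.9 CPM in RKO and 206 CPM in RKO-R, and miR-141-3p was also low in the RKO lines (2.38 and 5.93 CPM). miR-429 was higher in both HCT116 lines than in either RKO line. It had 15883 CPM in HCT116, 12718 CPM in HCT116-R, 7251 CPM in RKO and 8836 CPM in RKO-R. Some members ran close together, such as miR-200a-3p at 2113 CPM in HCT116 and 1840 CPM in RKO. miR-194-5p was higher in HCT116 (112 CPM) than in RKO (75.2 CPM) but lower in HCT116-R (65.1 CPM) than in RKO-R (119 CPM). With bulk RNA, fewer cells with a miRNA and less of it per cell cannot be told apart.

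miR-29 was an abundant family in all 4 lines, and the RKO lineage held more of it than the HCT116 lineage. The 3 members together had 42727 counts in the parental HCT116 library and 41164 in its derivative, and 111216 counts in the parental RKO library and 107774 in its derivative. As a level this was 6262 CPM in HCT116 (6203 to 6321), 6037 CPM in HCT116-R (5979 to 6096), 15575 CPM in RKO (15485 to 15667) and 15589.7 CPM in RKO-R (15498 to 15682). The RKO lines were the high pair and the HCT116 lines the low pair, and within each pair the sums lay close together. The sum in HCT116-R was 0.964 times that in HCT116, and the sum in RKO-R was 1.00 times that in RKO. The sum in RKO was 2.49-fold that in HCT116, and the sum in RKO-R was 2.58-fold that in HCT116-R. With the TMM scaling used in the tests below, these lineage folds were 2.28 and 3.25, the sum in HCT116-R was 0.950 times that in HCT116, and the sum in RKO-R was 1.18 times that in RKO. The near equality of the RKO pair therefore depends on scaling by library total.

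miR-29a-3p, the product of MIR29A, was the most abundant member in every library. It had 4800.4 CPM in HCT116, 3712 CPM in HCT116-R, 11394 CPM in RKO and 10275 CPM in RKO-R. It ranked 33rd, 38th, 20th and 22nd among the miRNAs of these libraries in that order. By library total its level was lower in the radioresistant line than in the parent in both lineages, whereas with TMM scaling the RKO pair turned (below).

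miR-29b-3p, the member with 2 genomic copies, had a higher level in CPM in both radioresistant lines than in their parents. It had 1344 CPM in HCT116, 2222 CPM in HCT116-R, 4030.3 CPM in RKO and 5159 CPM in RKO-R. The counting intervals of these 4 values did not overlap (1317 to 1372, 2187 to 2257, 3984 to 4077 and 5106 to 5213 CPM). Its order from low to high was HCT116, HCT116-R, RKO and RKO-R, whereas that of miR-29a-3p was HCT116-R, HCT116, RKO-R and RKO.

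miR-29c-3p, from the hairpin next to MIR29B2, was the rare member. It had 117 CPM in HCT116 (109.5 to 126), 104 CPM in HCT116-R (96.6 to 112), 151 CPM in RKO (142 to 161) and 156 CPM in RKO-R (147 to 165). The 2 HCT116 lines overlapped within counting error, as did the 2 RKO lines, and the RKO lines lay above the HCT116 lines. The spread between lineages was smaller for miR-29c-3p than for the other members, and its level was far below that of miR-29b-3p throughout.

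**Figure D1:**
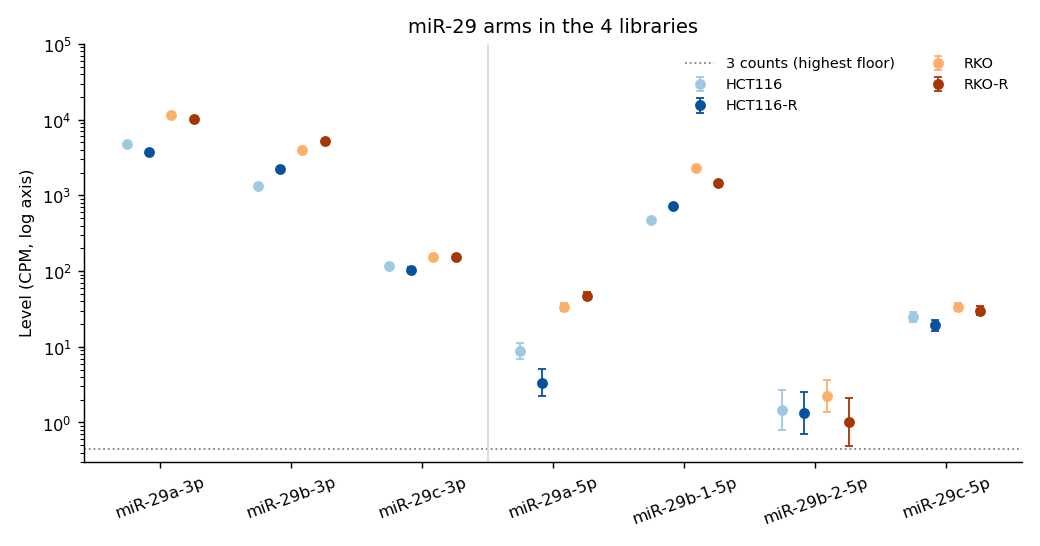
Level of each miR-29 arm in CPM on a log axis, with 3p arms to the left of the vertical line and 5p arms to the right. Points are the 4 libraries, bars are 95% counting intervals, and the dotted line is the highest level that 3 counts represent. RKO and RKO-R lie above the HCT116 lines for miR-29a-3p (11394 and 10275 against 4800.4 and 3712 CPM), and miR-29b-2-5p lies near the dotted line in all 4.

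The division of the family among its members differed between each radioresistant line and its parent, in the same direction in both lineages. Both radioresistant libraries, and neither parental one, also held most counts of the pairs described above under the opposite-strand name. The part of that library difference in the division was not tested. miR-29a-3p made up 76.7% (76.3 to 77.1) of the family counts of HCT116 but 61.5% (61.0 to 61.9) of those of HCT116-R, and 73.2% (72.9 to 73.4) for RKO but 65.9% (65.6 to 66.2) for RKO-R. miR-29b-3p made up 21.5% (21.1 to 21.9) of HCT116 but 36.8% (36.3 to 37.3) of HCT116-R, and 25.9% (25.6 to 26.1) of RKO but 33.1% (32.8 to 33.4) of RKO-R. The shares of the 2 parental libraries lay nearer each other than to those of their radioresistant derivatives, although their total levels were far apart. With 1 library per line, that order cannot be told apart from variation between cultures. miR-29c-3p made up 1.87% and 1.72% of the HCT116 pair and 0.971% and 0.998% of the RKO pair, parental line first, and here the lineages rather than the pairs lay apart.

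Shares within a library do not depend on how the libraries are scaled to each other. The same holds for the number of miR-29b-3p counts per miR-29a-3p count, which was 0.280 for HCT116 against 0.599 for HCT116-R, and 0.354 for RKO against 0.502 for RKO-R. On the log2 scale this ratio was higher by 1.10 in HCT116-R than in HCT116 (SE 0.58, 95% interval -0.04 to 2.23) and by 0.51 in RKO-R than in RKO (SE 0.58, interval -0.63 to 1.64). Those errors assume that a miRNA varies between cultures with a biological coefficient of variation (BCV) of 0.2, the value named in the methods of the study, and that the members vary independently. Under that assumption both intervals include 0, although the counting intervals of the shares lie far apart. The ratio of miR-29c-3p to miR-29a-3p was 0.0245, 0.0280, 0.0133 and 0.0151 in HCT116, HCT116-R, RKO and RKO-R, with log2 differences of 0.20 and 0.19 within the pairs that were small beside their intervals (-0.94 to 1.34 and -0.95 to 1.33).

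**Figure D2:**
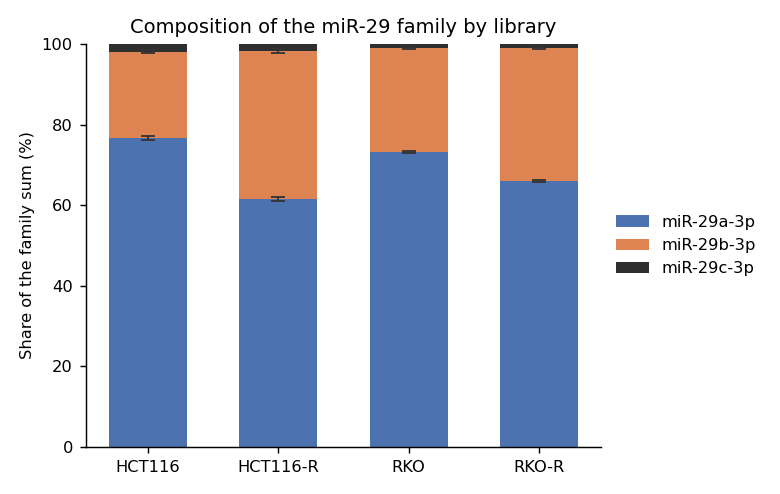
Percent of the miR-29 family counts taken by miR-29a-3p, miR-29b-3p and miR-29c-3p in each of the 4 libraries. The share of miR-29b-3p is 36.8% in HCT116-R against 21.5% in HCT116, and 33.1% in RKO-R against 25.9% in RKO.

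The 5p arms, the strands of the hairpins that are mostly discarded, were listed for all 4 hairpins and were unequal to each other. miR-29b-1-5p, from the cluster on chromosome 7, had 3209 and 4939 counts in the HCT116 parent and derivative and 16480 and 10098 counts in the RKO parent and derivative, or 470.3, 724, 2308 and 1461 CPM. miR-29b-2-5p, from the cluster on chromosome 1, had 10, 9, 16 and 7 counts in the same order, or 1.01 to 2.24 CPM. The 5p arm of MIR29B1 thus outnumbered that of MIR29B2 by 321, 549, 1030 and 1443 to 1, and miR-29b-2-5p was 0.0693% to 0.311% of both arms together.

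Among the other 5p arms, miR-29a-5p had 60 and 23 counts in the HCT116 pair, parent first, and 238 and 327 counts in the RKO pair (8.79, 3.37, 33.3 and 47.3 CPM). miR-29c-5p had 168, 131, 240 and 208 counts (24.6, 19.2, 33.6 and 30.1 CPM). miR-29a-5p was low in the HCT116 lines and lowest in HCT116-R, while miR-29c-5p was lowest in HCT116-R and highest in RKO over a narrower range. Although miR-29a-3p exceeded miR-29b-3p everywhere, miR-29b-1-5p outnumbered miR-29a-5p in every library, by 53.5 to 1 and 215 to 1 in the HCT116 pair and by 69.2 to 1 and 30.9 to 1 in the RKO pair, so the order of the arms was opposite on the other side of the hairpins. miR-29b-1-5p alone was 93.1% to 97.1% of all 5p counts of the family. All 5p arms together were 7.47% and 11.0% of the counts of both arms in the HCT116 pair, parent first, and 13.2% and 8.99% in the RKO pair.

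Counts of the 3p arm relative to the 5p arm therefore differed widely between the hairpins. miR-29a-3p outnumbered miR-29a-5p by 546 to 1 (424 to 703) for HCT116, 1100.3 to 1 (731 to 1656) for HCT116-R, 342 to 1 (301.0 to 388) for RKO and 217 to 1 (195 to 242) for RKO-R. The ratio was highest in HCT116-R and lowest in RKO-R, and on the log2 scale it lay 2.34 higher in HCT116-R than in RKO-R (95% interval 1.06 to 3.63 at a BCV of 0.2). Within the pairs its log2 differences were 1.01 (-0.32 to 2.34) in HCT116-R against HCT116 and -0.65 (-1.81 to 0.50) in RKO-R against RKO, neither clear of 0. miR-29b-3p, which can come from either copy, outnumbered miR-29b-1-5p by 2.86, 3.07, 1.75 and 3.53 to 1 in HCT116, HCT116-R, RKO and RKO-R, and miR-29c-3p outnumbered miR-29c-5p by 4.77, 5.41, 4.50 and 5.17 to 1. RKO stood apart in the miR-29b ratio, but its log2 difference to RKO-R of 1.02 had an interval of -0.12 to 2.15.

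**Figure D3:**
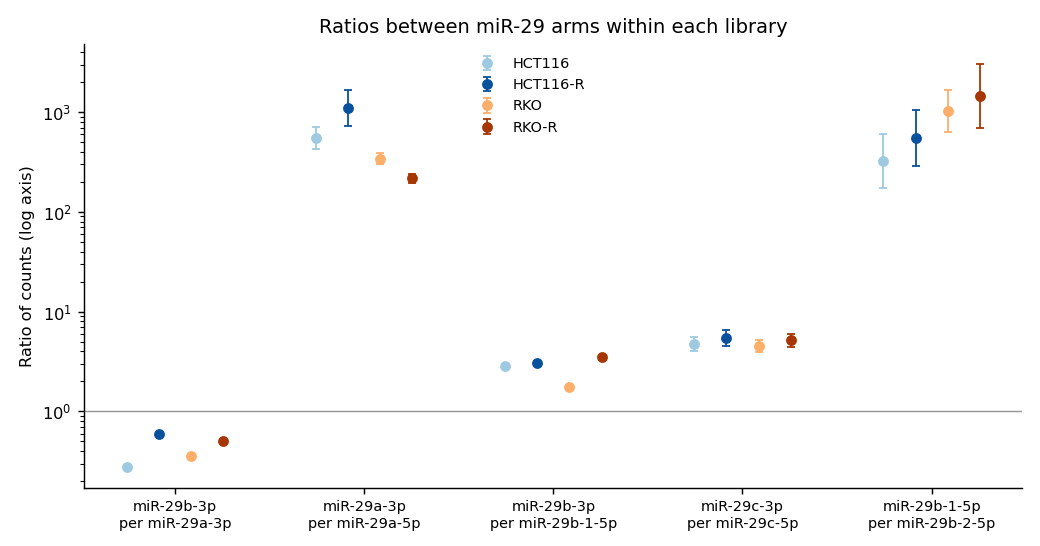
Ratios of counts between pairs of miR-29 arms within each library, on a log axis, with the horizontal line at 1. Points are the 4 libraries and bars are 95% counting intervals. miR-29b-3p per miR-29a-3p lies below 1 in all 4 libraries (0.280 to 0.599) and miR-29a-3p per miR-29a-5p lies between 217 and 1100.3.

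The first comparison was of each radioresistant line with its parent. With 1 library per line, edgeR's exact test was run across all miRNAs at an assumed BCV of 0.2 with TMM scaling, and Benjamini-Hochberg adjusted p-values under 0.05 were called. These tests compare 2 libraries rather than 2 conditions, and their errors rest on the assumed value. For HCT116-R against HCT116, 53 of 1322 miRNAs were called, which is 4.01 percent of those tested (2.34 percent higher and 1.66 percent lower in HCT116-R), and none of the 3 miR-29 members was among them. The log2 fold change of miR-29b-3p was 0.70 (SE 0.41, 95% interval -0.10 to 1.50, edgeR exact test p = 0.0885, adjusted p = 0.582). That of miR-29a-3p was -0.39 (-1.19 to 0.41, exact p = 0.339, adjusted p = 1) and that of miR-29c-3p was -0.20 (-1.01 to 0.62, exact p = 0.640, adjusted p = 1).

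None of the 3 members reached an unadjusted p under 0.05 in this pair. Their median log2 fold change was -0.20 beside 0.07 over all miRNAs tested. Taking the 166 abundant miRNAs, those reaching 500 counts in each of both libraries, the size of the difference had a median of 0.36, and that of miR-29b-3p was larger than 144 of them, that of miR-29a-3p larger than 89 and that of miR-29c-3p larger than 53. miR-29b-3p thus sat in the upper part of the abundant miRNAs by size of difference.

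Of the 4 arms on the 5p side, none was called either. miR-29a-5p, with 60 parental counts and 23 in HCT116-R, had the largest difference of the 7 arms, a log2 fold change of -1.40 (SE 0.54, interval -2.46 to -0.34, edgeR exact test p = 0.0127, adjusted p = 0.197). miR-29b-1-5p had 0.60, with an adjusted p of 0.721 in the edgeR exact test.

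For RKO-R against RKO, 64 of 1155 miRNAs were called, 5.54 percent of those tested, and again none of the 3 members. Of all calls 29 were higher and 35 lower in RKO-R, or 2.51 and 3.03 percent of those tested, whereas scaling by library total gave 20 higher and 54 lower, because TMM moved every log2 fold change of this pair by 0.24. miR-29b-3p had a log2 fold change of 0.59 (SE 0.41, 95% interval -0.21 to 1.39, edgeR exact test p = 0.150, adjusted p = 0.659). miR-29a-3p had 0.09 (-0.71 to 0.89, exact p = 0.831, adjusted p = 1), which was -0.15 when scaled by library total, and miR-29c-3p had 0.28 (-0.53 to 1.09, exact p = 0.505, adjusted p = 1).

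No member reached an unadjusted p under 0.05 in the RKO pair. The median of the 3 was 0.28 beside 0.02 over all miRNAs tested. In the 148 miRNAs equally abundant here the difference of miR-29b-3p was larger in size than 115, that of miR-29c-3p larger than 62 and that of miR-29a-3p larger than 26, beside a median size of 0.33. Of the 5p arms, miR-29a-5p with 238 and 327 counts had a log2 fold change of 0.74 (interval -0.09 to 1.58, edgeR exact test p = 0.0863, adjusted p = 0.508), and miR-29b-1-5p, with the opposite sign to the HCT116 pair, had -0.42 with an edgeR adjusted p of 0.903. The intervals of both pairs still allow a difference of more than 2-fold in miR-29b-3p, so these libraries do not show that its level was alike in the radioresistant and parental lines. At a BCV of 0.1 miR-29b-3p was called as higher in both pairs, with an edgeR exact test adjusted p of 0.00860 in HCT116-R and 0.0350 in RKO-R, but 154 of 1322 and 148 of 1155 miRNAs were then called. At 0.490, the BCV estimated over the 4 libraries, its edgeR adjusted p was 1 in both pairs. That estimate came from a fit of cell line and radioresistance with 1 residual degree of freedom. It therefore reflects how far the pairs disagreed over all miRNAs, not a measured spread between replicate cultures.

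Of the markers of other cell types, the stromal sum and the liver miRNA differed most within the same pairs, the stromal sum in opposite directions. The 4 stromal marker miRNAs (miR-143, miR-145, miR-199a and miR-214) summed to 342 CPM in HCT116 and 157 CPM in HCT116-R, and to 7.14 CPM in RKO, where 3 of the 4 were at 0, and 90.8 CPM in RKO-R. The liver miRNA miR-122-5p had 82.1 CPM in HCT116 and 9.09 CPM in HCT116-R, and 15.3 CPM in RKO and 2.60 CPM in RKO-R. The 6 blood markers summed to 43.8, 38.1, 8.68 and 5.79 CPM over HCT116, HCT116-R, RKO and RKO-R, and the 3 muscle markers to 0.840 to 1.76 CPM. Within the blood sum of the HCT116 pair, parent first, miR-223-3p had 54 and 6 counts and miR-142-3p had 26 and 66. The part of all these markers in the miR-29 values was not tested.

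**Figure D4:**
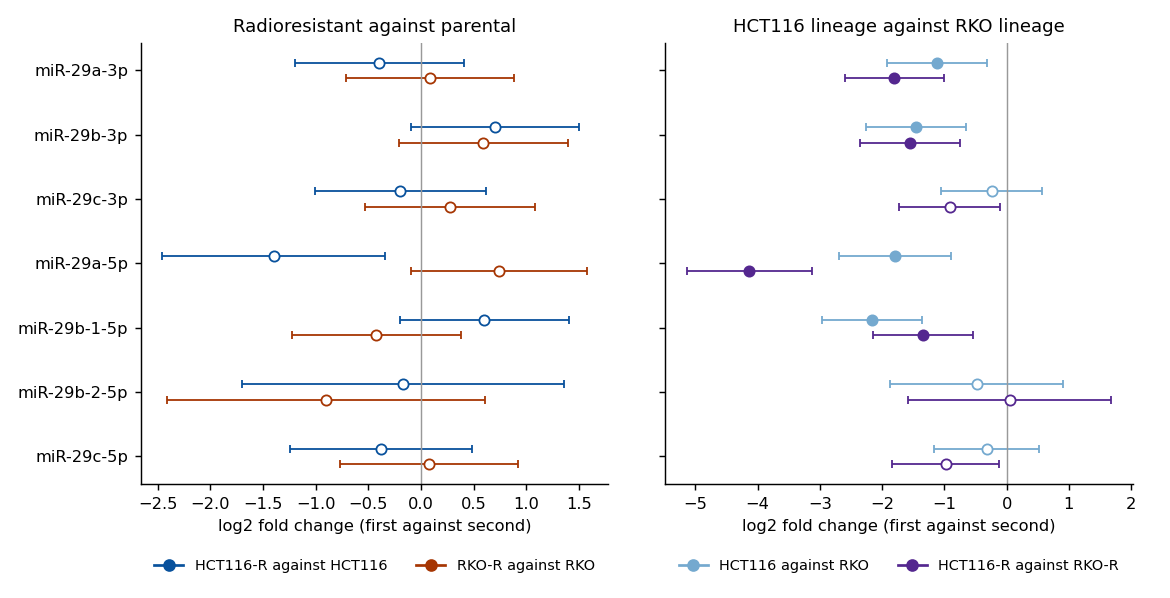
Log2 fold changes of the 7 miR-29 arms from edgeR's exact test at a BCV of 0.2, radioresistant against parental on the left and HCT116 lineage against RKO lineage on the right. Bars are 95% intervals at that BCV, filled points have an adjusted p under 0.05 and open points do not. All points on the left are open, and on the right miR-29a-3p, miR-29b-3p, miR-29a-5p and miR-29b-1-5p are filled in both comparisons.

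Whether the 2 pairs differed from each other was tested as the interaction of cell line and radioresistance over all 4 libraries, with edgeR's likelihood ratio test at a BCV of 0.2. By that test 70 of 1474 miRNAs were called, 4.75 percent. The log2 fold change of miR-29b-3p in the HCT116 pair minus that in the RKO pair was 0.14 (95% interval -0.99 to 1.28), and the corresponding values were -0.45 (-1.58 to 0.68) for miR-29a-3p and -0.44 (-1.59 to 0.71) for miR-29c-3p, with an edgeR adjusted p of 1.00 for each. The 3p arms were thus not shown to differ between the pairs, and their intervals also leave room for sizeable differences. The 5p arm miR-29a-5p did differ, by -2.11 (SE 0.69, interval -3.46 to -0.76, edgeR adjusted p = 0.0451), with a level of 8.79 CPM in HCT116 and 3.37 CPM in HCT116-R but 33.3 CPM in RKO and 47.3 CPM in RKO-R. With scaling by library total the difference was -1.88 and its edgeR adjusted p was 0.0804, and at a BCV of 0.4 the adjusted p was 0.711, so either setting ended the call. For miR-29b-1-5p the difference was 1.06 (-0.08 to 2.19, edgeR adjusted p = 0.396).

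The second comparison was of the lineages, parental line with parental line and radioresistant line with radioresistant line, and it uses the same 4 libraries as the first. Between the parental lines, 329 of 1289 miRNAs were called, 25.5 percent, of which 220 were higher in HCT116, or 17.1 percent of those tested, and 109 lower, or 8.46 percent. Of the 3 members, 2 were called and both were lower in HCT116. miR-29b-3p, at 1344 CPM in HCT116 and 4030.3 CPM in RKO, had a log2 fold change of -1.46 (SE 0.41, edgeR exact test adjusted p = 0.00288), a level 2.75-fold higher in RKO. miR-29a-3p, at 4800.4 and 11394 CPM, had -1.12 (SE 0.41, edgeR exact test adjusted p = 0.0307), 2.18-fold higher in RKO. At a BCV of 0.4 neither was called, with edgeR adjusted p of 0.331 for miR-29b-3p and 0.517 for miR-29a-3p.

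miR-29c-3p was not called between the parental lines. Its log2 fold change of -0.24 had an interval of -1.05 to 0.57 and an edgeR adjusted p of 0.833. The median of the 3 members was -1.12 beside 0.18 over all miRNAs tested. In the 145 miRNAs that reached 500 counts in each parental line, the difference of miR-29b-3p was larger in size than 122 and that of miR-29a-3p larger than 109, beside a median size of 0.67.

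Between the radioresistant lines, 309 of 1333 miRNAs were called, 23.2 percent, of which 213 were higher in HCT116-R, or 16 percent of those tested, and 96 lower, or 7.2 percent. The same 2 members were called, and both were lower in HCT116-R. miR-29a-3p, at 3712 CPM in HCT116-R and 10275 CPM in RKO-R, had a log2 fold change of -1.80 (SE 0.41, edgeR exact test adjusted p = 0.000184), 3.49-fold higher in RKO-R. miR-29b-3p, at 2222 and 5159 CPM, had -1.55 (SE 0.41, edgeR exact test adjusted p = 0.00162), 2.93-fold higher in RKO-R. At a BCV of 0.4 the edgeR adjusted p was 0.204 for miR-29a-3p and 0.323 for miR-29b-3p.

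Here miR-29c-3p had -0.92 (interval -1.73 to -0.10) and an edgeR adjusted p of 0.104, so it was not called although its interval excludes 0. The median of the 3 was -1.55 beside 0.59 over all miRNAs tested. TMM moved each log2 fold change of this comparison by -0.33 and each of the parental comparison by 0.13.

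On the 5p side the arms of the chromosome 7 cluster were called in both lineage comparisons and those of the chromosome 1 cluster in neither. miR-29b-1-5p was 4.50-fold higher in RKO than in HCT116 (edgeR exact test adjusted p = 4.8e-06) and 2.54-fold higher in RKO-R than in HCT116-R (edgeR exact test adjusted p = 0.00757). miR-29a-5p was 3.47-fold higher in RKO than in HCT116 (edgeR exact test adjusted p = 0.000791) and 17.6-fold higher in RKO-R than in HCT116-R (edgeR exact test adjusted p = 1.5e-13), the latter from 327 against 23 counts. miR-29c-5p had log2 fold changes of -0.32 and -0.98, with edgeR adjusted p of 0.768 and 0.102, and miR-29b-2-5p had -0.48 and 0.05 from at most 16 counts in a library. At a BCV of 0.4 the calls of miR-29b-1-5p (edgeR adjusted p = 0.0882 and 0.430) and of miR-29a-5p between the parental lines (0.220) were lost, as was that of miR-29b-1-5p between the radioresistant lines without TMM (0.0602), whereas at a BCV of 0.1 miR-29c-5p was called between the radioresistant lines (0.000791). The difference in called arms between the clusters was not itself tested.

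The miRNAs whose levels ran most like the family sum were found among 159 with a mean of at least 100 CPM, by the root mean square difference of log2(CPM + 1) centred on the mean of the 4 libraries. This describes a likeness over 4 points that share their libraries, and says nothing of shared control. The closest was miR-126-3p, at a distance of 0.111 and with 3949, 3452, 8331 and 8018 CPM in HCT116, HCT116-R, RKO and RKO-R. It was followed by miR-10b-5p at 0.122, miR-15b-5p at 0.145, let-7i-3p at 0.178 and miR-454-3p at 0.184, beside a median of 0.83 over the 159. Of the members themselves, miR-29a-3p, which is most of the sum and so must lie near it, was at 0.125, miR-29b-3p at 0.303 and miR-29c-3p at 0.438. All 5 miRNAs found by likeness were higher in both RKO lines than in either HCT116 line, which follows from how they were chosen.

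**Figure D5:**
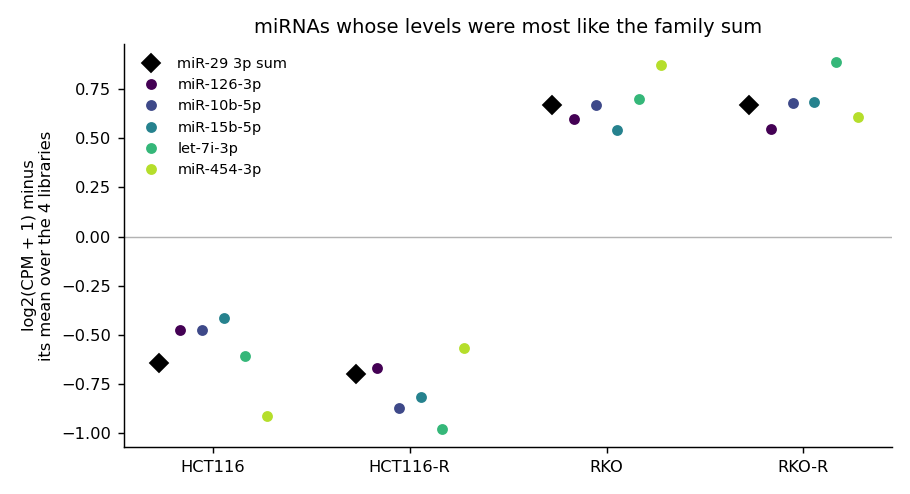
Log2(CPM + 1) centred on the mean of the 4 libraries, for the miR-29 family sum and the 5 miRNAs whose pattern was most like it. The sum and miR-126-3p, at a distance of 0.111, run low in the HCT116 lines and high in the RKO lines.

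miRNAs described as sharing a regulator or a target with miR-29 were counted by list, and the calls in the resistance pairs were 1 or 2 a list, beside the 4.01 and 5.54 percent called over all miRNAs. Of 16 miRNAs described as repressed by MYC, as miR-29 is, 1 was called in the HCT116 pair. This was miR-497-5p, with 386 counts in the parent and 141 in its derivative, which fell by 1.47 on the log2 scale (edgeR exact test adjusted p = 0.0233). In the RKO pair miR-146a-5p, with 140 and 308 counts, rose by 1.42 (edgeR exact test adjusted p = 0.0328) and miR-30c-5p, with 364 and 108 counts, fell by 1.47 (edgeR exact test adjusted p = 0.0294). The medians of the list were -0.05 and 0.39 beside 0.07 and 0.02 over all miRNAs.

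Of 9 miRNAs described as targeting DNMT or TET enzymes, miR-342-3p was called in the HCT116 pair, with 690 counts in the parent, 270 in the derivative and a log2 fold change of -1.37 (edgeR exact test adjusted p = 0.0359). In the RKO pair miR-143-3p, which is also 1 of the stromal markers, had 51 and 522 counts and rose by 3.64 (edgeR exact test adjusted p = 1.7e-11). The others on this list, among them miR-26a-5p with 237082, 173753, 159104 and 209338 counts in HCT116, HCT116-R, RKO and RKO-R, did not pass the test in either pair. Of 12 miRNAs described as targeting BCL2, BCL2L1 or MCL1, 1 was called in each pair, miR-497-5p again and let-7c-5p, at 414 counts for RKO and 1282 for RKO-R, which rose by 1.91 (edgeR exact test adjusted p = 0.000512).

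Between the parental lines the 3 lists had 2 higher and 2 lower in HCT116, 2 and 2, and 2 and 0, of 16, 9 and 12, beside 17.1 and 8.46 percent of all miRNAs. Between the radioresistant lines they had 3 higher and 5 lower in HCT116-R, 1 and 1, and 2 and 3, beside 16 and 7.2 percent. miR-22-3p, which stands on the MYC and the DNMT or TET lists, was lower in HCT116 than in RKO like miR-29a-3p and miR-29b-3p, at 7355 and 16706 CPM, with a log2 fold change of -1.06 (edgeR exact test adjusted p = 0.0449). It was not called between the radioresistant lines (-0.74, edgeR exact test adjusted p = 0.224). Also lower in HCT116 than in RKO were miR-152-3p (-5.73, edgeR exact test adjusted p = 1.1e-24) and miR-30e-5p (-1.25, edgeR exact test adjusted p = 0.0253). Of the same lists, miR-195-5p, miR-497-5p, miR-143-3p and miR-342-3p were higher in HCT116 than in RKO.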

How the data were processed

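The authors deposited raw read counts per mature miRNA for each of 4 libraries, made from 18 to 30 nt small RNA with unique molecular identifiers in the adapters and sequenced on a BGISEQ-500. Bowtie2 and hg38 are named in the submitters' processing notes, and the version, the miRNA annotation release, the use of strand and the collapsing of identifiers are not given in the sources used here. Samples were grouped by their titles, and a miRNA missing from a library was set to 0.

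Counts were divided by the library total for CPM. Shares and their limits are 95% Wilson intervals. The family and 5p arms were tested with edgeR 4.0.16 (R 4.3.3) by exactTest at a BCV of 0.2, with TMM within each comparison and Benjamini-Hochberg adjustment over all miRNAs with at least 1 count, and the difference of pairs with glmLRT. Standard errors combine the counts and that BCV. The quasi-likelihood test needs replicates and was run as an alternative only. Named miRNAs were the members, the 5p arms, miRNAs with the same seed, list members called or most abundant (up to 4 a list), and the 5 most like the sum. Members and lists were chosen with earlier results of these data known. Sequences came from RefSeq, of which 1313 of the 1474 listed miRNAs had an entry. Alternatives were other BCVs, scaling, filters and DESeq2 1.42.0 size factors. Other miRNAs entered the fits, the background shares and the likeness search and are otherwise not described.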

Additional observations from a re-analysis of the deposited data

Results flagged for a closer look

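1 result was singled out, because the effect of the same contrast differed between the 2 lineages. The log2 fold change of miR-29a-5p in the HCT116 pair minus that in the RKO pair was -2.11 (SE 0.69, 95% interval -3.46 to -0.76, edgeR likelihood ratio test at a BCV of 0.2, adjusted p = 0.0451). It rests on 60 and 23 counts in the HCT116 pair, parent first, and 238 and 327 counts in the RKO pair, 1 library per line, and the fold changes of the single pairs did not pass the test. With scaling by library total its edgeR adjusted p was 0.0804, and at a BCV of 0.4 it was 0.711, so the call was lost under both. Its guide strand miR-29a-3p had a difference of -0.45 (-1.58 to 0.68) between the same pairs. No group had the 4 samples needed to look for a sample far from the others.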

How the results depend on the processing

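Of 285 log2 fold changes of the 7 arms over the 4 comparisons and their alternatives, 256 kept their direction and their side of the threshold, 15 lost a call, 7 gained one and 7 changed sign. Most changes of a call came with another BCV. Summing miR-29a-3p and miR-29c-3p before the tests left the counts called at 53, 64, 329 and 309. At a BCV of 0.1 the counts called were 154 (HCT116-R against HCT116) and 148 (RKO-R against RKO), and edgeR adjusted p passed for miR-29b-3p at 0.70 (0.00860) and 0.59 (0.0350), miR-29a-5p at -1.40 (0.00908) and 0.74 (0.0201), miR-29b-1-5p in the HCT116 pair at 0.60 (0.0355), miR-29c-3p at -0.92 (0.000143) and miR-29c-5p at -0.98 (0.000791) in HCT116-R against RKO-R, and the difference of pairs of miR-29b-1-5p at 1.06 (0.00426). At a BCV of 0.4 and at 0.490, the value estimated over all 4 libraries, the counts called were 24 and 13 (HCT116 pair), 9 and 5 (RKO pair), 152 and 111 (HCT116 against RKO) and 140 and 93 (HCT116-R against RKO-R). The calls of these arms were then lost at both, with edgeR adjusted p of 0.517 and 0.770 for miR-29a-3p at -1.12, 0.331 and 0.579 for miR-29b-3p at -1.46, 0.220 and 0.431 for miR-29a-5p at -1.79 and 0.0882 and 0.285 for miR-29b-1-5p at -2.17 between the parental lines, and 0.204 and 0.468 for miR-29a-3p at -1.80, 0.323 and 0.584 for miR-29b-3p at -1.55 and 0.430 and 0.705 for miR-29b-1-5p at -1.35 between the radioresistant lines. miR-29a-5p between the radioresistant lines kept its call under each alternative run, with an edgeR adjusted p of at most 0.0113. The difference of pairs of miR-29a-5p at -2.11 had an edgeR adjusted p of 0.711 at a BCV of 0.4, and without TMM it was -1.88 (0.0804). Without TMM, miR-29b-1-5p between the radioresistant lines was -1.01 (edgeR adjusted p = 0.0602), and in the RKO pair miR-29a-3p turned to -0.15 and miR-29c-5p to -0.16. At an unadjusted p under 0.05 the pairs had 149 and 148 calls. edgeR's quasi-likelihood test, with 1 residual degree of freedom, gives 1 value for both pairs, which was 0.011 for miR-29c-3p, -0.18 for miR-29a-3p, -0.31 for miR-29a-5p, 0.059 for miR-29b-1-5p and -0.18 for miR-29c-5p and turned the sign of 1 pair each (adjusted p = 0.998). It called 4 of 598 miRNAs, and 10 had an unadjusted p under 0.05. That fit has cell line as a term and so pairs each derivative with its parent. By TMM effective library size the family sum was 14283 CPM in RKO and 16845 CPM in RKO-R. No library could be left out, since each line has 1. No paired analysis by replicate number was possible because each line has 1 library and the labels give no such numbers. At these depths counting error adds most to the error of miR-29b-2-5p (7 to 16 counts), whereas for the other arms most of the error is the assumed spread between cultures.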
